A study of Mus musculus with 6 samples.

Results

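Immediate early genes are genes that cells switch on within minutes of a stimulus, before any new protein has been made. 10 of them were followed here in livers of ethanol-fed mice with and without Cd44: Fos, Fosb, Jun, Junb, Egr1, Egr2, Ier2, Ier3, Atf3 and Myc. They were chosen by name, through the Ensembl identifiers of the count table. All 10 were found among 54532 genes with such an identifier, and all 10 had enough counts to be among the 14145 genes tested. The livers came from 6 mice, 3 wild-type and 3 Cd44-/- (B6.Cg-Cd44tm1Hbg/J, a targeted allele that removes the gene from all cells), and poly(A) RNA of each liver was sequenced as 1 library. Mice of either genotype drank Lieber-DeCarli diet that held 5% (vol/vol) ethanol over 10 days. On day 11 each was gavaged with ethanol at 5 g/kg, and the livers were collected 9 hours after that dose. The strain of the wild-type mice, and the age and sex of any mouse, could not be read from the labels. No mouse without ethanol was analysed here, so the comparison is between genotypes within the ethanol-fed liver, and it says nothing of how ethanol itself moves these genes.

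The proteins encoded by these genes fall into 4 kinds. FOS, FOSB, JUN and JUNB join in pairs through leucine zippers to form the transcription factor AP-1, and ATF3 is a stress-induced relative that pairs with JUN proteins and often represses. EGR1 and EGR2 are zinc finger factors that bind GC-rich sites. IER2 and IER3 are small proteins without such a DNA-binding fold, IER3 being known for its link to NF-kB signalling and cell survival, and MYC pairs with MAX to drive genes of growth and ribosome production. Serum response factor, ELK and CREB proteins sit ready at many of their promoters and are switched on by MAP kinases. The mRNAs are short-lived, so a level is a snapshot of recent stimulation. In liver they respond to partial hepatectomy, endotoxin, tissue handling and alcohol, in hepatocytes as well as in the other cells.

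Promoter windows of the genes whose genotypes did not overlap (Ier3, Fosb and Egr2, below) are shown with that of Fos, whose genotypes did overlap, because these letters are what the signalling factors read. The windows searched are the 250 bases before a RefSeq transcription start on GRCm38.p6, and they are printed without bases that belong to an exon. An entry was used for 7 of the 10 genes (Fos, Fosb, Jun, Junb, Egr2, Ier3 and Atf3). Capitals mark matches on either strand to one of the motifs searched. These were the CArG box bound by serum response factor, TGACGTCA (full CRE), TGACG (short CRE, which is also part of the full one), TGACTCA or TGAGTCA (AP-1), GCGGGGGCG (EGR1 site), GGACTTTCC or GGAATTTCC (NF-kB) and TATAAA.
Ier3, chr17:35821463-35821683, plus strand: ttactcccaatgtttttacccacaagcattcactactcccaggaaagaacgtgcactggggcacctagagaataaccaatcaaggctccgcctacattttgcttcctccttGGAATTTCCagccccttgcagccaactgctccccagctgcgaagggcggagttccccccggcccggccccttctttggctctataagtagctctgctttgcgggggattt
Fosb, chr7:19310052-19310295, minus strand: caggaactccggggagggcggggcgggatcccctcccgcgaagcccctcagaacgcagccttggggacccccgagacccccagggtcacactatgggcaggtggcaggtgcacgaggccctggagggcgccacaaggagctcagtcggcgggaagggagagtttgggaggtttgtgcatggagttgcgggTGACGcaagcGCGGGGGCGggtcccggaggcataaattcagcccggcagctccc
Egr2, chr10:67537619-67537868, plus strand: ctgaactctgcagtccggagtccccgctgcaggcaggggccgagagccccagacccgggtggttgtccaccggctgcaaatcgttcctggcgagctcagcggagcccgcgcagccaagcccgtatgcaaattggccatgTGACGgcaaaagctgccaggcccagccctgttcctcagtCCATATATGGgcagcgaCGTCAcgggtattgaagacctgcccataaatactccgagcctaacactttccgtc
Fos, chr12:85473640-85473889, plus strand: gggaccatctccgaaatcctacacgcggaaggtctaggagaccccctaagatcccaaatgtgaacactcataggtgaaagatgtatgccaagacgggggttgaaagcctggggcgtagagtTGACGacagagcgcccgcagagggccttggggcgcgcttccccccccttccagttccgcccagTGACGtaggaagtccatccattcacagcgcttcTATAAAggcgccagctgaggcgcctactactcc

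Counted back from the start site at base −1, the Ier3 window held the NF-kB letters GGAATTTCC at −139 to −131, a motif found in 0.566% of 32851 windows of all genes. The Fosb window held TGACG at −60 to −56 and GCGGGGGCG at −50 to −42. These letters were in 17.8% and 2.57% of all windows. Egr2 has 5 listed starts, and the window of start 3 is printed because it holds a CArG box (chosen after its letters were seen). That box lies at −72 to −63, with TGACG at −111 to −107 and its reverse at −55 to −51. Start 2 has another CArG box at the same distance, and 1.47% of all windows hold one. The Fos window held TGACG at −129 to −125 and at −66 to −62, and TATAAA at −33 to −28, letters present in 12.4% of all windows. The full CRE (1.55% of all windows) and the AP-1 letters (4.46%) matched no window of the 7 genes. A match is a run of letters, and binding was not measured. Letters further than 250 bases before a start were not searched, so a motif without a match here may lie outside the window. Over the 250 bases searched, the short CRE was in the first window of 4 of the 7 genes. Fosb, Fos and Junb hold it outside exons. The match of Atf3, at −7 to −3, lies in bases of the Atf3 exon, which printed windows leave out. Mean levels in the knockout were lower for Fosb and Fos and not for Junb and Atf3. The first window of Egr2 lacks the short CRE, while the printed window of start 3 holds it. Whether the motif has a part in the genotype difference was not tested.

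The libraries held 15493009 to 19346623 counts, and levels are given as CPM, a gene's share of its library after TMM scaling. A count of 0 allows up to 3 counts, which is 0.150 to 0.206 CPM. Such limits cover counting error only. The targeted gene checked the labels: Cd44 (ENSMUSG00000005087) had 590, 175 and 568 counts in wild-type mice 1, 2 and 3 and 1, 0 and 0 in knockout mice 1, 2 and 3. The hepatocyte markers Alb, Apoa1, Ttr, Serpina1c and Cyp2e1 added up to 75360 to 94509 CPM in wild-type livers, and in knockout livers to 83402 to 104178 CPM, as the tissue label says. The 10 immediate early genes together took 801, 249 and 457 CPM in wild-type mice 1, 2 and 3 and 441, 756 and 449 CPM in knockout mice 1, 2 and 3. Those sums overlapped between genotypes, and the spread within a genotype was wide in both.

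The 10 genes did not differ between genotypes as a block. Mean levels were lower in the knockout for 6 of them (Fosb, Egr2, Ier3, Fos, Jun and Ier2) and higher for 4 (Junb, Egr1, Myc and Atf3), where 51.1% of all tested genes had a lower mean. For Fosb, Ier3 and Egr2 every knockout mouse lay below every wild-type mouse. That is 3 of 10 genes, where the genotypes did not overlap for 18.2% of all genes and for 9.42% in the lower direction. 0 of 10 passed an adjusted p of 0.05 in edgeR's quasi-likelihood test with Benjamini-Hochberg adjustment over all genes, a threshold that 0.0141% of genes passed (2 of 14145). Before adjustment 3 of 10 had p under 0.05, all lower, where 7.59% of all genes were lower at that level. DESeq2, the other count model, called the same 3 genes lower, where it called 2.5% of genes in all and 1.59% lower, and limma-voom called 0 of 10.

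**Figure D1:**
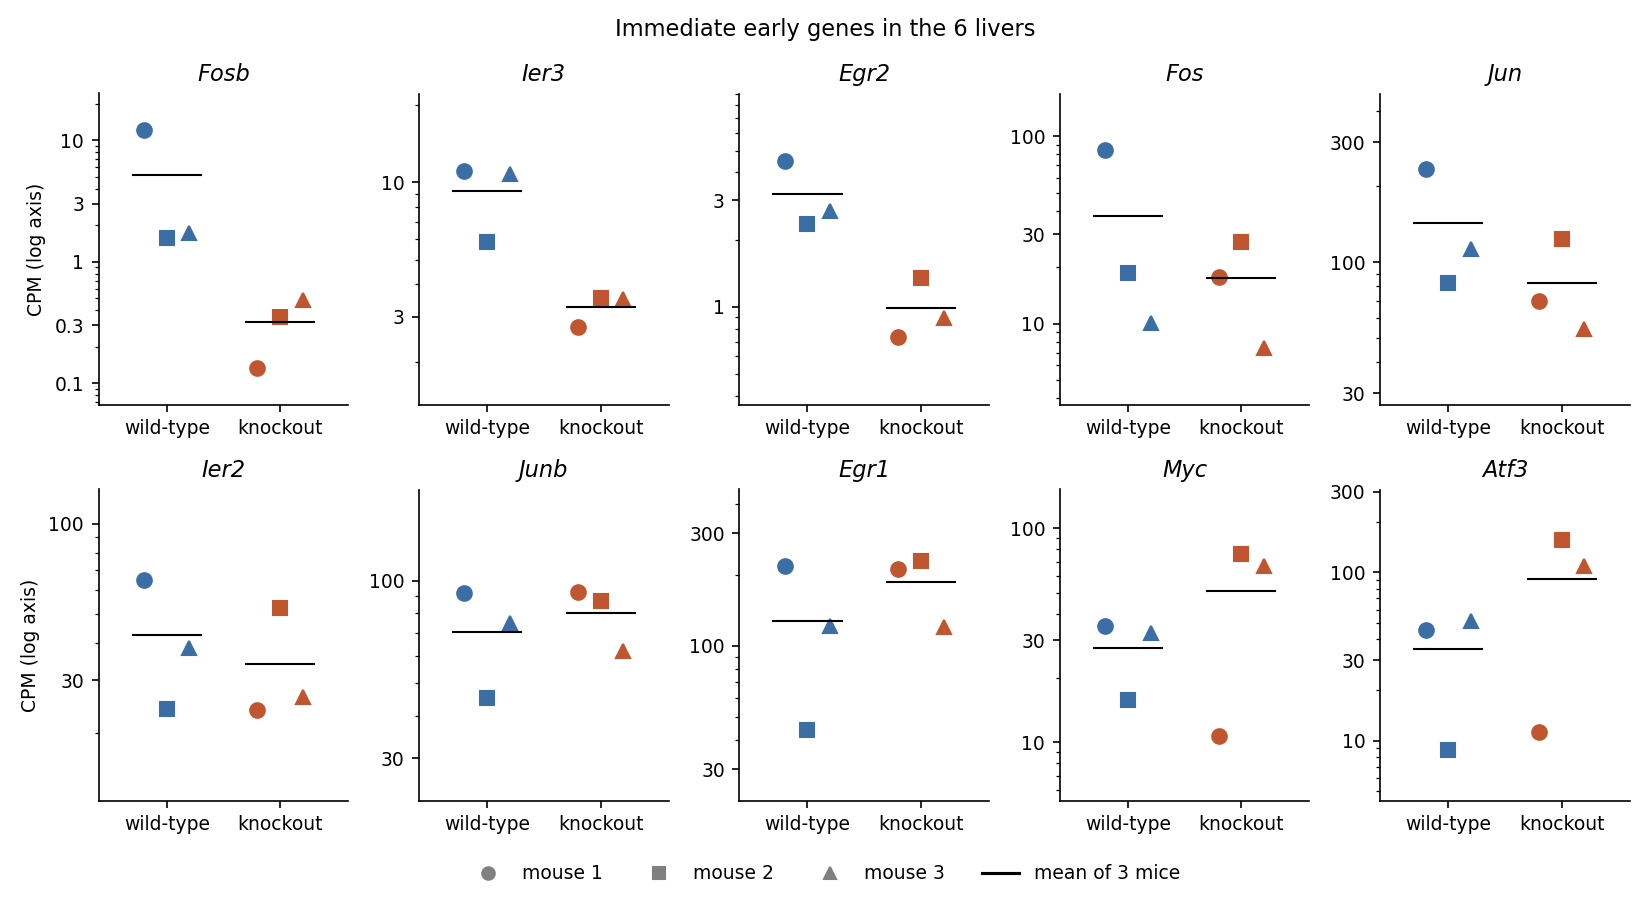
Level of each of the 10 immediate early genes in every mouse, in CPM on a log axis, with wild-type mice in blue, knockout mice in red, the symbol showing the mouse number and the bar the mean of 3 mice. For Fosb, Ier3 and Egr2 all knockout points lie below all wild-type points, and for Myc and Atf3 knockout mice 2 and 3 lie high while knockout mouse 1 lies low.

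Fosb encodes an AP-1 subunit and was the gene with the lowest level in the knockout. Fosb (ENSMUSG00000003545; GRCm38, chromosome 7, 19302696 to 19310051, minus strand) stood at 12.2, 1.57 and 1.73 CPM in wild-type mice 1, 2 and 3 and at 0.133, 0.351 and 0.480 CPM in knockout mice 1, 2 and 3. The counts behind these levels were 224, 24 and 34 in wild-type and 2, 7 and 7 in knockout libraries. The genotypes did not overlap, but wild-type mouse 1 stood 7.78-fold above wild-type mouse 2 and carried most of the wild-type counts. The log2 fold change of knockout relative to wild-type was −3.98 ± 1.08 (SE, n = 3 per genotype; edgeR adjusted p = 0.237, DESeq2 adjusted p = 0.000648). Without wild-type mouse 1 the log2 fold change was −2.33 ± 0.50 (edgeR adjusted p = 0.327), still with no overlap. The difference thus kept its direction without that mouse, and its size moved by more than 1.5 times.

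Fos, the AP-1 subunit most used as a marker of recent stimulation, showed no such separation. Fos (ENSMUSG00000021250; chromosome 12, 85473890 to 85477273, plus strand) stood at 84.4, 18.6 and 10.1 CPM in wild-type mice 1, 2 and 3 and at 17.7, 27.4 and 7.40 CPM in knockout mice 1, 2 and 3. Only wild-type mouse 1 stood apart, and the other 5 livers mixed. With all 6 livers the log2 fold change was −1.10 ± 0.85 (edgeR adjusted p = 0.663), and without wild-type mouse 1 it turned to 0.29 ± 0.55. Fos and Fosb, close relatives, thus had different profiles over the 6 livers, with a root mean square distance of 1.44 on the log2 scale after centring each gene.

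Jun and Junb encode the other side of the AP-1 pair, JUN being the activating and JUNB the often weaker partner. Jun (ENSMUSG00000052684; chromosome 4, 95049034 to 95052222, minus strand) stood at 235, 82.6 and 112 CPM in wild-type mice 1, 2 and 3 and at 70.0, 124 and 54.0 CPM in knockout mice 1, 2 and 3. Wild-type mouse 1 was the highest and knockout mouse 3 the lowest, but knockout mouse 2 lay above wild-type mice 2 and 3. For Jun the log2 fold change was −0.79 ± 0.46 (edgeR adjusted p = 0.541), and −0.24 ± 0.36 without wild-type mouse 1. Junb (ENSMUSG00000052837; chromosome 8, 84974484 to 84978718, minus strand) stood at 92.2, 45.0 and 74.7 CPM in wild-type mice 1, 2 and 3 and at 92.6, 86.8 and 62.1 CPM in knockout mice 1, 2 and 3. Its genotypes overlapped throughout, with a log2 fold change of 0.19 ± 0.27 (edgeR adjusted p = 0.838; 95% interval −0.44 to 0.81). The sign turned to −0.04 ± 0.19 without wild-type mouse 2. Junb shares 173 exon bases with Prdx2 on the opposite strand, and the library protocol names no strand-marking step, so part of its counts cannot be assigned with certainty. Jun shares 232 exon bases with the antisense gene Junos, which had 89 counts in all against 12107 for Jun.

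Atf3, the stress-induced partner of JUN proteins, had the largest positive difference and the widest spread of the 10. Atf3 (ENSMUSG00000026628; chromosome 1, 191170296 to 191218039, minus strand) stood at 45.2, 8.81 and 51.7 CPM in wild-type mice 1, 2 and 3 and at 11.3, 155 and 108 CPM in knockout mice 1, 2 and 3. Knockout mice 2 and 3 lay above every wild-type mouse, and knockout mouse 1 lay 13.7-fold below knockout mouse 2, next to the lowest wild-type liver. This gave a log2 fold change of 1.38 ± 1.02 (edgeR adjusted p = 0.653; 95% interval −1.14 to 3.89). It was 1.91 ± 0.67 without knockout mouse 1 (edgeR adjusted p = 0.498) and 0.76 ± 1.09 without knockout mouse 2.

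Myc followed the same order of mice as Atf3 in the knockout. Myc (ENSMUSG00000022346; chromosome 15, 61985391 to 61990374, plus strand) stood at 35.0, 15.8 and 32.4 CPM in wild-type mice 1, 2 and 3 and at 10.7, 76.0 and 66.6 CPM in knockout mice 1, 2 and 3. Knockout mice 2 and 3 again lay above all wild-type livers and knockout mouse 1 below them. For Myc it was 0.88 ± 0.68 on the log2 scale (edgeR adjusted p = 0.663) and 1.37 ± 0.33 without knockout mouse 1 (unadjusted p = 0.00501, edgeR adjusted p = 0.425). With that mouse left out the genotypes did not overlap for 5 of the 10 genes, Myc and Atf3 higher beside the 3 lower ones, where 13.7% of all tested genes lay higher without overlap. Leaving it out is a choice made to see its weight, and nothing in the labels sets that mouse apart.

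Ier3 had the most even difference of the 10. Ier3 (ENSMUSG00000003541; chromosome 17, 35821684 to 35822923, plus strand) stood at 11.1, 5.87 and 10.8 CPM in wild-type mice 1, 2 and 3 and at 2.72, 3.56 and 3.50 CPM in knockout mice 1, 2 and 3. The 3 knockout livers lay close together, with an SD of 0.466 CPM around 3.26 CPM, and all lay below the lowest wild-type liver. The log2 fold change was −1.50 ± 0.29 (edgeR unadjusted p = 0.000772 and adjusted p = 0.217; DESeq2 adjusted p = 0.00134). Across the 6 fits that each left out 1 mouse it ran from −1.73 to −1.35, and the edgeR adjusted p was 0.0241 without wild-type mouse 2, where 0.97% of genes were called lower, and 0.239 to 0.698 in the other 5. Ier2 (ENSMUSG00000053560; chromosome 8, 84661331 to 84662852, minus strand), a nuclear protein of the same name group but another family, stood at 65.0, 24.0 and 38.5 CPM in wild-type mice 1, 2 and 3 and at 23.8, 52.2 and 26.3 CPM in knockout mice 1, 2 and 3. Its genotypes overlapped, with a log2 fold change of −0.32 ± 0.43 (edgeR adjusted p = 0.832) that turned to 0.13 ± 0.39 without wild-type mouse 1.

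Of the EGR pair, Egr1 overlapped between genotypes and Egr2 did not. Egr1 (ENSMUSG00000038418; chromosome 18, 34859823 to 34864984, plus strand) stood at 217, 44.1 and 121 CPM in wild-type mice 1, 2 and 3 and at 211, 230 and 120 CPM in knockout mice 1, 2 and 3. Wild-type mouse 2 was the only liver far from the rest, and the log2 fold change was 0.55 ± 0.54 (edgeR adjusted p = 0.746), or 0.15 ± 0.35 without it. Egr2 (ENSMUSG00000037868; chromosome 10, 67535475 to 67542188, plus strand), known for its part in myelin, lymphocytes and macrophages, stood at 4.51, 2.35 and 2.70 CPM in wild-type mice 1, 2 and 3 and at 0.730, 1.35 and 0.891 CPM in knockout mice 1, 2 and 3. No knockout liver reached the lowest wild-type one, and the counts were 83, 36 and 53 against 11, 27 and 13. The log2 fold change was −1.65 ± 0.39 (edgeR unadjusted p = 0.00263 and adjusted p = 0.217; DESeq2 adjusted p = 0.0255). It ran from −1.97 to −1.32 with single mice left out. Whether Egr1 and Egr2 differ in their response to genotype was not tested.

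**Figure D2:**
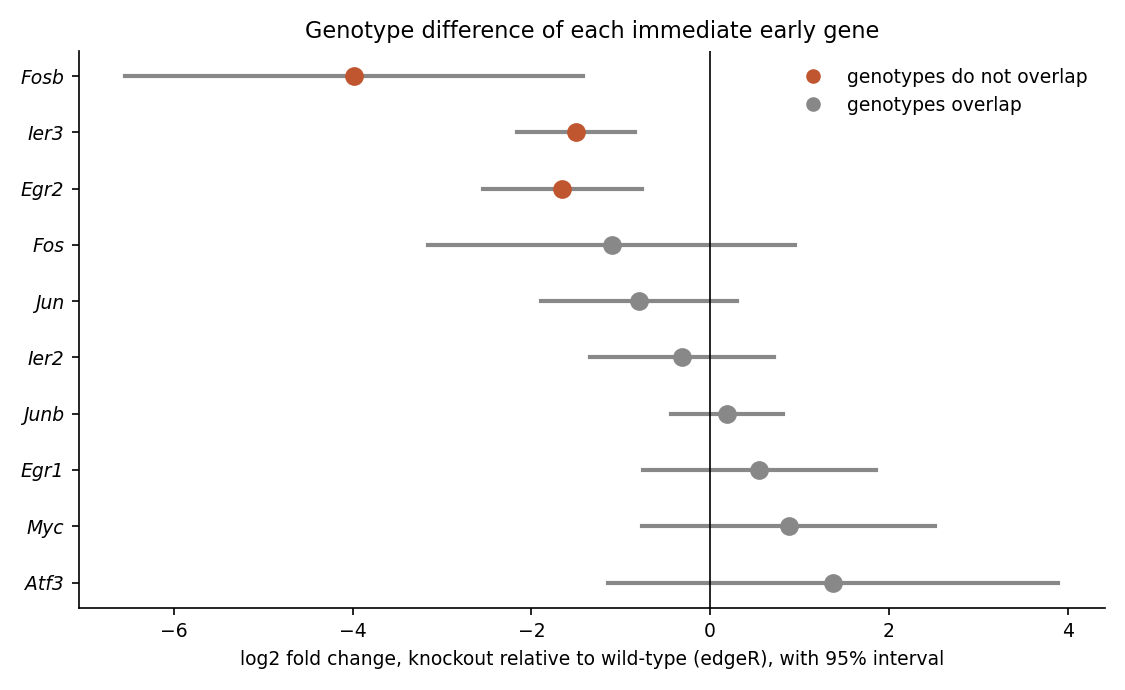
Log2 fold change of each gene, knockout relative to wild-type, with its 95% interval from edgeR (n = 3 per genotype). The intervals of Fosb, Ier3 and Egr2 lie below 0 before adjustment for the number of genes tested, and those of the other 7 genes cross 0.

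Summed markers of macrophages, proliferation and cholangiocytes were lower in every knockout liver than in every wild-type liver, as Fosb, Ier3 and Egr2 were. The 10 Kupffer cell and macrophage markers (among them Adgre1, Clec4f, Vsig4 and Cd68) were all detected in every liver and added up to 946, 346 and 791 CPM in wild-type mice 1, 2 and 3, against 281, 309 and 280 CPM in knockout mice 1, 2 and 3. The genotypes did not overlap in this sum, the mean was lower for 10 of 10 markers, and 0 passed in edgeR. Over all tested genes 51.1% had a lower mean, which is the share to set beside this and the marker counts below. In RNA of whole liver, fewer cells of a type and less RNA per cell cannot be told apart. The 6 proliferation markers came to 41.9 to 102 CPM in wild-type livers against 20.1 to 27.9 CPM, and 6 of 6 had a lower mean. Cholangiocyte markers, 5 of 5 with a lower mean, summed to 51.6 to 65.1 and 27.5 to 36.3 CPM. Stellate cell and fibroblast markers (7 of 7 with a lower mean) ran from 350 to 569 and from 309 to 413 CPM, and endothelial markers (4 of 7) from 151 to 347 and from 178 to 262 CPM. Red cell markers (5 of 5) ran from 60.7 to 296 and from 117 to 160 CPM. Neutrophil markers were near the counting floor, at 5.22 to 8.87 CPM summed over 8 genes in wild-type and 2.81 to 6.70 CPM in knockout livers. Among them Mpo had 2 counts over the 6 libraries together, so its 0 in all 3 knockout libraries shows no difference. T, NK and B cell markers came to 2.50 to 14.4 and 2.59 to 10.5 CPM. The part of these cells in the values of Fosb, Ier3 and Egr2 was not tested. The sum of all the immediate early genes was second highest in knockout mouse 2 (756 CPM), where the macrophage markers came to 309 CPM. Fosb, Ier3 and Egr2 made up little of that sum, at 0.351, 3.56 and 1.35 CPM in that mouse, so it does not speak to them.

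Mice of the same genotype differed from each other in most of these genes. In wild-type mice, mouse 1 was the highest for 9 of the 10 genes and mouse 2 the lowest for 9. Among knockout mice, mouse 2 was the highest for 8. The median of the 10 genes, each centred on its mean log2 CPM over the 6 mice, was 0.95, −0.42 and 0.14 in wild-type mice 1, 2 and 3 and −0.76, 0.39 and −0.52 in knockout mice 1, 2 and 3, so the genotypes overlapped. The spread within genotypes, as the pooled SD of log2 CPM, had a median of 0.797 over the 10 genes against 0.248 over all tested genes. Ier3 had the smallest spread (0.389) and Atf3 the largest (1.76), at the percentiles 72.5 and 99.6 of all genes. The genes differ in how far 3 mice per genotype can show a difference. Of the 3 genes without overlap, Ier3 and Egr2 had the smallest and the third smallest spread, but Fosb had a wide one (1.23, percentile 98.6). Junb, with the second smallest spread (0.434), overlapped between genotypes. The median log2 fold change of the 10 genes was −0.55, beside −0.01 over all tested genes, and it turned to 0.21 without wild-type mouse 1.

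**Figure D3:**
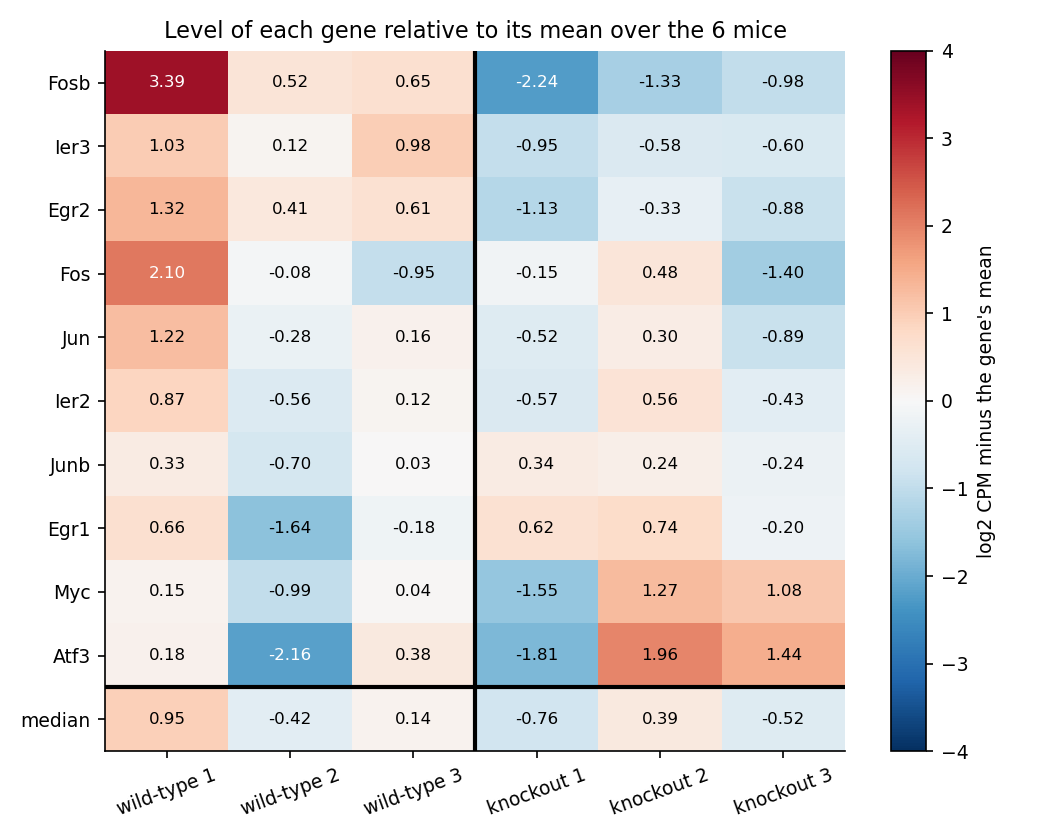
Level of each gene in each mouse as log2 CPM minus that gene's mean over the 6 mice, with the median of the 10 genes in the bottom row; red is above and blue below the gene's own mean. Wild-type mouse 1 is above the mean for all 10 genes, and in the upper 3 rows, Fosb, Ier3 and Egr2, every wild-type value is above 0 and every knockout value below it.

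**Figure D4:**
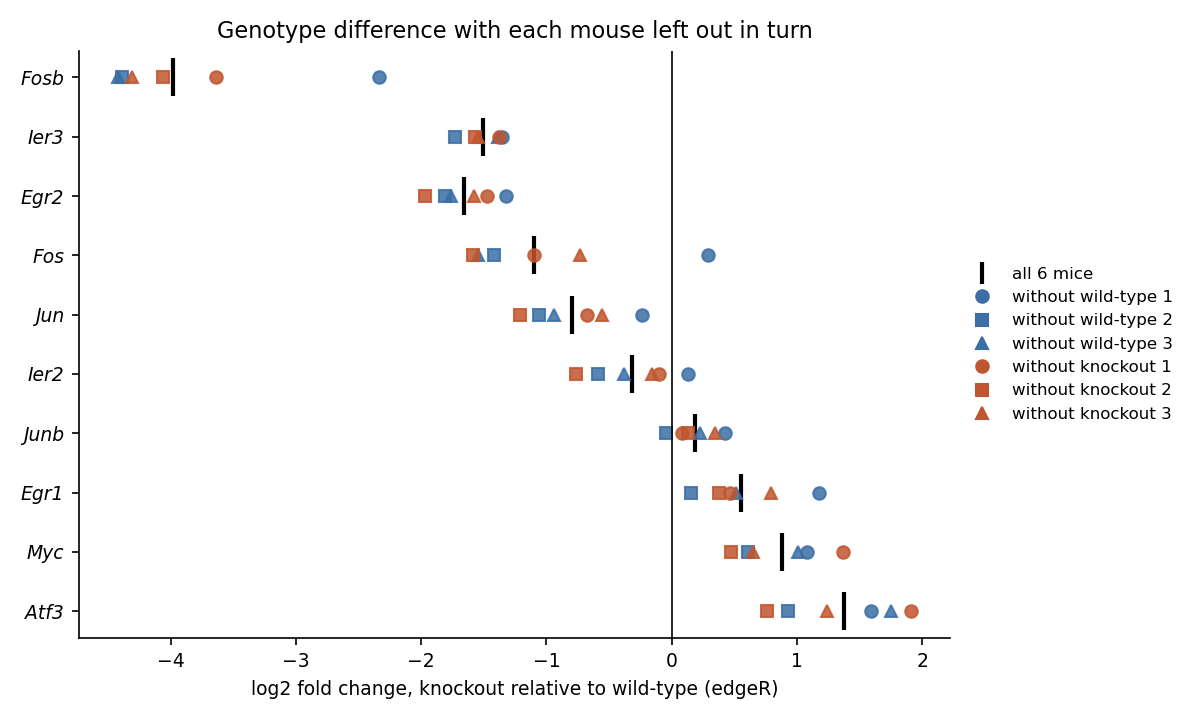
Log2 fold change of each gene from edgeR with all 6 mice (black bar) and with each mouse left out in turn (symbols, named in the key). Fosb, Ier3 and Egr2 stay below 0 and Egr1, Myc and Atf3 above 0 in all 6 fits, and Fos and Ier2 cross 0 when wild-type mouse 1 is left out, as Junb does without wild-type mouse 2.

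Levels of different genes can be compared only per length, here as CPM per kb of merged exons. In wild-type livers the order was Jun (44.9 ± 25.3 CPM per kb, SD, n = 3), Junb (30.7 ± 10.4), Egr1 (28.4 ± 19.3), Ier2 (27.9 ± 13.7), Atf3 (16.4 ± 10.7), Fos (16.0 ± 17.3), Myc (10.2 ± 3.84), Ier3 (8.17 ± 2.58), Egr2 (0.938 ± 0.342) and Fosb (0.827 ± 0.974). Only the step from Ier3 to Egr2 was larger than the larger SD of the pair. In knockout livers the order was Atf3 (42.5 ± 34.1 CPM per kb), Egr1 (41.7 ± 13.2), Junb (35.0 ± 7.03), Jun (25.9 ± 11.5), Ier2 (22.4 ± 10.3), Myc (18.8 ± 13.0), Fos (7.44 ± 4.25), Ier3 (2.88 ± 0.412), Egr2 (0.292 ± 0.0950) and Fosb (0.0514 ± 0.0281). There the last 3 steps, from Fos down to Fosb, exceeded the larger SD. Egr2 and Fosb, 2 of the 3 genes without overlap, were thus also the 2 lowest of the 10 in either genotype.

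Genes with the most similar profile were taken as the 5 protein-coding genes whose centred log2 CPM over the 6 mice lay closest to the median profile of the 10, among 11178 genes with a median distance of 0.624. They were Relb, a subunit of NF-kB (distance 0.127), Cep192, a centrosomal protein (0.178), Trim47, of the tripartite motif family (0.181), Lrmp, a membrane protein of lymphoid cells (0.185), and Adamts1, a secreted metalloproteinase (0.209). Relb stood at 14.5, 7.05 and 8.31 CPM in wild-type mice 1, 2 and 3 and at 4.65, 10.3 and 6.10 CPM in knockout mice 1, 2 and 3, and Adamts1 at 67.0, 28.9 and 44.4 against 27.0, 39.2 and 30.6 CPM. With 6 points a close profile is a description and not a test. Among the members the closest pairs were Egr2 with Ier3 (0.283) and Jun with Ier2 (0.284), and the most distant were Fosb and Atf3 (2.39).

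The genes around the members were read from lists of the pathway. Other primary response genes, switched on by the same stimuli, had 35 of 40 tested (Egr3, Egr4, Ptgs2, Arc and Npas4 had too few counts). Of these 35, 28 had a lower and 7 a higher mean in the knockout, and the median of the log2 fold changes was −0.58. 0 passed in edgeR, 10 lay lower at an unadjusted p under 0.05 (7.59% of all genes) and 0 higher, 10 did not overlap and were lower (9.42% of all genes), and DESeq2 called 5 lower (1.59% of all genes). The 5 were Dusp1, Dusp5, Csrnp1, Sik1 and Rhob. Rhob, a small GTPase, stood at 89.6, 72.9 and 79.7 CPM in wild-type mice 1, 2 and 3 and at 50.1, 57.4 and 45.0 CPM in knockout mice 1, 2 and 3 (log2 fold change −0.67 ± 0.14, edgeR adjusted p = 0.217, DESeq2 adjusted p = 0.0107). Sik1, a kinase that restrains CREB coactivators, stood at 35.4, 41.5 and 45.0 CPM in wild-type against 18.6, 26.0 and 27.5 CPM in knockout livers (−0.76 ± 0.17, edgeR adjusted p = 0.217). Csrnp1 (−1.01 ± 0.24), a nuclear protein, and Plk2 (−0.91 ± 0.26), a polo-like kinase, also did not overlap. These genes varied less between mice of a genotype than Fos or Fosb did.

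Feedback inhibitors of the MAP kinases and of EGR proteins, of which 5 DUSP genes are also in the list before, had 10 of 12 lower means, a median log2 fold change of −0.27 (0.00 without wild-type mouse 1) and 5 genes lower without overlap (9.42% of all genes). 0 passed in edgeR and 2, Dusp1 and Dusp5, were called lower by DESeq2 (1.59% of all genes). Dusp1, which removes phosphate from p38 and JNK kinases, stood at 35.3, 54.6 and 36.9 CPM in wild-type mice 1, 2 and 3 and at 10.5, 29.8 and 10.5 CPM in knockout mice 1, 2 and 3 (log2 fold change −1.31 ± 0.44, edgeR adjusted p = 0.297). Dusp5, an ERK phosphatase, stood at 22.2, 4.24 and 10.2 against 1.73, 3.56 and 3.63 CPM (−2.04 ± 0.60, edgeR adjusted p = 0.258). Dusp2 (−1.59 ± 0.46), a nuclear phosphatase of leukocytes, and Spry4 (−0.67 ± 0.23), a Sprouty inhibitor of receptor signalling, did not overlap either.

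The kinases and factors upstream of the members showed small differences. Of 22 genes of the MAP kinase cascade, 13 had a lower and 9 a higher mean, and the median difference was −0.05 on the log2 scale. 0 passed in edgeR, and DESeq2 called 1 lower (1.59% of all genes). The genotypes did not overlap for 4 of the 22 genes, near the share of 18.2% over all genes. The gene that DESeq2 called was Rps6ka1, a ribosomal S6 kinase activated by ERK. Rps6ka1 stood at 38.0, 44.2 and 25.3 CPM in wild-type and 15.2, 24.6 and 17.6 CPM in knockout livers (−0.90 ± 0.25, edgeR adjusted p = 0.232). Mapk3, which encodes ERK1, had a log2 fold change of −0.33 ± 0.11 without overlap, Map3k5 one of 0.57 ± 0.27 and Rps6ka3 one of −0.33 ± 0.17, both with overlap. Of 14 SRF, ELK and CREB factors 4 had a lower and 10 a higher mean, the median was 0.10, all 14 overlapped between genotypes and 0 passed in either edgeR or DESeq2, with 0 at an unadjusted p under 0.05. The values nearest to the threshold were Crem at 0.33 ± 0.18, Crtc2 at −0.18 ± 0.12, Mrtfb at 0.28 ± 0.21 and Atf1 at 0.16 ± 0.15. Transcript levels say nothing of how far these proteins were phosphorylated.

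The AP-1 and ATF dimer partners had 8 of 13 lower means and a median log2 fold change of −0.51, which was −0.04 when genes had to reach 1 CPM in 3 libraries. 0 passed in edgeR or DESeq2, and 1 of 13 lay lower at an unadjusted p under 0.05 (7.59% of all genes). That was Fosl1, which encodes FRA1, at 12.0, 0.914 and 3.31 CPM in wild-type mice 1, 2 and 3 and 0.996, 1.45 and 0.411 CPM in knockout mice 1, 2 and 3 (−2.46 ± 0.92, edgeR adjusted p = 0.339). Fosl1 shares 57.2% of its exon bases with Ccdc85b on the opposite strand, so its counts are uncertain. Batf (−0.99 ± 0.43), Jdp2 (−0.78 ± 0.35) and Batf3 (−1.04 ± 0.56), leucine zipper proteins of leukocytes or repressors of AP-1, had lower means, and of these Batf alone did not overlap.

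Genes commonly described as AP-1 or EGR targets had the median furthest from 0 among these lists, −1.52, with 15 of 16 lower means. 11 lay lower at an unadjusted p under 0.05 (7.59% of all genes), 10 were lower without overlap (9.42% of all genes), 6 were called lower by DESeq2 (1.59% of all genes) and 0 by edgeR. Ccl2, a monocyte chemoattractant, stood at 11.1, 5.48 and 6.83 CPM in wild-type mice 1, 2 and 3 and at 1.73, 1.05 and 1.17 CPM in knockout mice 1, 2 and 3 (log2 fold change −2.58 ± 0.35, edgeR adjusted p = 0.217, DESeq2 adjusted p = 2.05e-07). Cxcl2 (−2.63 ± 0.54), a neutrophil chemoattractant, and Timp1 (−2.50 ± 0.52), an inhibitor of metalloproteinases, were also lower in every knockout mouse than in every wild-type mouse. Several genes of this list are made by macrophages, whose marker sum was 346 to 946 CPM in wild-type livers against 280 to 309 CPM in the knockout, and the part of these cells in the list was not tested.

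The genes around MYC lay the other way, at a smaller size. Genes commonly described as MYC targets had 13 of 15 higher means and a median log2 fold change of 0.30. 7 lay higher at an unadjusted p under 0.05 (5.22% of all genes), 6 were higher without overlap (8.81% of all genes), DESeq2 called 2 higher (0.912% of all genes) and edgeR 0. Nop56, a core protein of the particles that modify ribosomal RNA, stood at 50.7, 34.9 and 31.1 CPM in wild-type mice 1, 2 and 3 and at 61.8, 72.6 and 67.1 CPM in knockout mice 1, 2 and 3 (0.79 ± 0.19, edgeR adjusted p = 0.217, DESeq2 adjusted p = 0.0238). Srm, spermidine synthase, stood at 68.8, 57.5 and 61.1 against 85.6, 82.2 and 94.0 CPM (0.48 ± 0.12, edgeR adjusted p = 0.217, DESeq2 adjusted p = 0.0468). Nop58 (0.67 ± 0.20), the partner of NOP56, and Cad (0.38 ± 0.14), which starts pyrimidine synthesis, did not overlap either. Knockout mouse 1, the liver with the lowest Myc, had a Nop56 level above all wild-type livers. Within the knockout Nop56 ranked the mice as Myc did, and Srm, Nop58 and Cad did not. Among wild-type mice the order of Nop56 differed from that of Myc. Whether the list follows Myc was not tested. Of 9 tested MYC network partners of 10, 3 had lower and 6 higher means, with a median of 0.13. DESeq2 called 1 higher (0.912% of all genes), which was Mga, a MAX-binding repressor. Mga stood at 33.9, 30.2 and 31.9 CPM in wild-type against 47.6, 53.7 and 44.6 CPM in knockout livers (0.60 ± 0.12, edgeR adjusted p = 0.217). Mxd1 (−0.77 ± 0.35), Mycl (0.53 ± 0.31) and Mlx (0.17 ± 0.13) overlapped between genotypes.

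**Figure D5:**
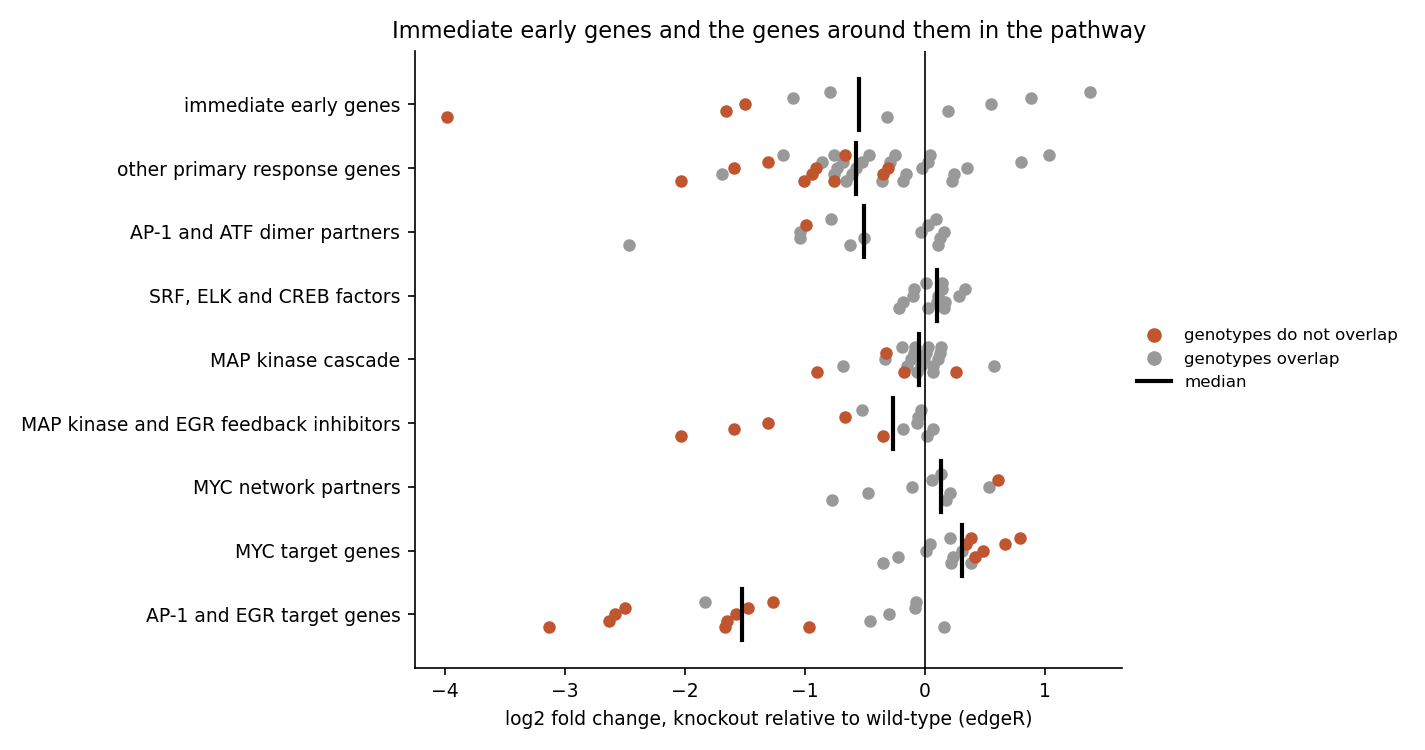
Log2 fold change (edgeR, knockout relative to wild-type) of every tested gene of the immediate early genes and of each pathway list, 1 point per gene, red where the genotypes did not overlap, with the list's median as a bar. The AP-1 and EGR target genes lie mostly below 0 with a median of −1.52, the MYC target genes mostly above 0 with a median of 0.30, and the SRF, ELK and CREB factors around 0.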

How the data were processed

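The authors deposited raw read counts for each Ensembl gene, with 1 column per mouse. The submitters' processing notes name HISAT2 2.0.5, StringTie 1.3.3b, featureCounts 1.5.0-p3 and the build GRCm38.p6. The annotation used, the handling of strand and that of reads with several matches are not given there. Of 54682 rows, 54495 matched GENCODE, which gave symbols, positions and exon lengths, and 150 rows without a gene name (0.273% to 0.509% of counts) were left out. In R 4.3.3, edgeR 4.0.16 kept genes by filterByExpr, scaled by TMM and tested genotype with the robust quasi-likelihood F test, adjusted over 14145 genes, threshold 0.05. The SE was taken as log2 fold change / √F. DESeq2 1.42.0 gave no adjusted p for 554 of these genes. The common biological coefficient of variation was 0.237. The code was tested on simulated data. Log2 CPM used a prior count of 2. With 3 against 3 mice an exact permutation test cannot go below p = 0.1, so p-values come from these models. The labels name separate mice and no batch; same-numbered mice did not deviate together (correlations −0.02, −0.02 and −0.01) and were not paired. Members, lists and markers were chosen with earlier results of these data known, and list counts and medians are descriptions. Named genes are the members, Cd44, up to 4 genes per list by smallest p and the 5 nearest profiles. 1 gene that this rule names is not reported here. Alternatives were RLE scaling, no filter, a filter of 1 CPM in 3 libraries, the mouse number as a block, the older quasi-likelihood fit, DESeq2, limma-voom (limma 3.58.1), protein-coding genes, a threshold of 0.1 and leaving out each mouse.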

Additional observations from a re-analysis of the deposited data

How the results depend on the processing

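Of the 10 genes, only Fos, Ier2 and Junb changed direction under any alternative, each without a single mouse: Fos ran from −1.58 to 0.29, Ier2 from −0.76 to 0.13 and Junb from −0.044 to 0.43 over the fits that left out 1 mouse. The median of the 10 ran from −0.98 to 0.21, with the positive value without wild-type 1. Ier3 ran from −1.73 to −1.35 and alone passed edgeR's threshold, in 1 of the 6 fits, so the count of the 10 past it ran from 0 to 1. The number without overlap ran from 3 to 5, and leaving out a mouse can only keep or raise that number for any set of genes. DESeq2 moved the largest number of calls: Fosb (−4.00), Egr2 (−1.67) and Ier3 (−1.50) passed, which makes 3 of 10, with 5 of the other primary response genes, 1 of the MAP kinase cascade, 2 feedback inhibitors, 1 MYC partner, 2 MYC targets, 6 AP-1 and EGR targets and 340 of all genes. Without a low-count filter edgeR called 1 AP-1 and EGR target and 6 of all genes; the older fit called 1 of all genes and limma-voom 0, with 0 at a threshold of 0.1 among the 10 in edgeR. Leaving out single mice moved the count over all genes from 0 to 151 (151 without wild-type 2, 0 without knockout 2 or 3), and the count of AP-1 and EGR targets from 0 to 3. Their median ran from −1.60 to −1.24 and that of the MYC partners from 0.068 to 0.19, the latter being 0.10 without a filter; that of the AP-1 and ATF partners was −0.035 with the 1 CPM filter, which tests fewer genes. The median of the SRF, ELK and CREB factors turned to −0.02 without wild-type 3. Where no reason is given the cause was not tested. With the mouse number as a replicate block, which the data do not bear out as a pairing, edgeR called 1 of all genes and 0 of the 10, whose median was −0.51. Depth limits Fosb and Egr2, with 2 to 27 counts per knockout library. With 3 mice per genotype the intervals of Fosb, Atf3, Fos and Myc span more than 3 log2 units.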

Other observations

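The balance between close relatives also differed between livers. This was looked at after the single values were seen, and it is given as values with no test. Fos had 6.93, 11.9 and 5.85 counts for each Fosb count in wild-type mice 1, 2 and 3 and 134, 78.1 and 15.4 in knockout mice 1, 2 and 3. The last 3 ratios rest on 2, 7 and 7 Fosb counts. Egr1 had 48.0, 18.8 and 45.0 counts for each Egr2 count in wild-type mice 1, 2 and 3 and 290, 170 and 134 in knockout mice 1, 2 and 3. Jun had 2.55, 1.83 and 1.504 counts for each Junb count in wild-type mice and 0.756, 1.43 and 0.870 in knockout mice 1, 2 and 3. For all 3 pairs the ratios of the genotypes did not overlap, although Fos, Jun, Junb and Egr1 each overlapped on their own. Fosb and Egr2 did not overlap on their own, so the ratios that hold them in part repeat that difference. For Jun and Junb the nearest values of the genotypes were 1.504 and 1.43. The share of all gene pairs without overlap was not computed. A ratio of counts does not compare levels between genes, since the transcripts differ in length, and the Junb counts carry the uncertainty of the shared exon bases.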
